A study of Homo sapiens with 6 samples.

Results

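The core components of the spliceosome were taken as the 58 protein-coding genes, of 58735 genes in the count table, whose symbols are those of the Sm proteins and U1 and U2 proteins (SNRPA to SNRPG), the numbered snRNP proteins (SNRNP), the SF3A and SF3B subunits, SF1, the U2AF subunits, the PRPF genes or the numbered LSM genes. RNA-seq measured mRNA levels in RPE-1, a human retinal pigment epithelial cell line carrying GFP-tagged Cetn2, a centriole protein, and PLK4 under an rtTA, doxycycline-inducible promoter. All 6 libraries came from cells given doxycycline at 1 µg/mL to induce PLK4, 3 after a scramble siRNA (siControl) and 3 after an siRNA against SON (siSON). The labels do not say whether the line is 1 clone, how long the knockdown lasted or whether replicates came from separate cultures, so p-values measure the spread between these libraries, which may be technical.

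The spliceosome removes introns from pre-mRNA and is built from small nuclear ribonucleoproteins (snRNPs) that assemble on each intron in turn. U1 binds the 5′ splice site, SF1 and U2AF mark the branch point and the 3′ end of the intron, and U2 then replaces SF1 at the branch point. The U4/U6.U5 tri-snRNP joins, U4 and U1 leave, and the Prp19 complex helps to activate the catalytic core, in which PRPF8 holds the RNAs in place. SON is a nuclear speckle protein that is known to help the splicing of a subset of introns. Counts summed over whole genes carry no information on single introns, so splicing was not analysed here.

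Total counts were 65800063, 58917762 and 69764836 over the siControl libraries, against 62723275, 54614539 and 54572365 over the siSON libraries. Levels are given as CPM, counts relative to the library's total, scaled with the trimmed-mean factors of edgeR (TMM). SON, the siRNA's target, had 295, 313 and 284 CPM in the siControl libraries and 68.0, 69.96 and 65.0 CPM in the siSON libraries (edgeR adjusted p 6.78e-10, log2 fold change -2.14 with an SE of 0.057). PLK4, induced in all libraries, was lower in siSON, at 177 ± 12.4 CPM in siControl and 138 ± 23.3 CPM in siSON (SD, n = 3 each; edgeR adjusted p 0.0143, log2 fold change -0.36 with an SE of 0.11). The part of this difference in the results below was not tested. Principal component 2, with 5.26% of the variance, set the libraries numbered 1 of both groups apart from the other 4: without them 32 of the genes below were called higher and 9 lower, in place of 30 and 8. Of the retinal pigment epithelium markers, RPE65, RLBP1, TTR and TYR were at most 0.258 CPM in any library, while MITF and OTX2 ran from 19.7 to 37.0 CPM and BEST1 from 7.71 to 14.8 CPM, all 3 higher in siSON. PMEL of the same list went the other way, from 2.06 ± 0.0434 to 0.200 ± 0.0447 CPM (SD, n = 3 each; edgeR adjusted p 3.72e-07). The summed level of all 8 markers was 51.0 to 52.8 CPM in siControl and 73.9 to 83.3 CPM in siSON, and that of 4 blood markers, of which only PTPRC was above 0, was 1.12 to 1.98 and 0.275 to 0.310 CPM. The part of either list in the results below was not tested. In bulk RNA, fewer cells of a type and less RNA per cell cannot be told apart.

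Under TMM, more of the 58 genes rose than fell after SON knockdown, mostly by a little, while 6 of the 7 genes of a single ring, LSM2 to LSM8, fell. The set was taken by symbol. It therefore includes 6 other Lsm genes, described below with roles outside that ring, and 5 of these rose. All 58 genes passed the filter on low counts, and edgeR's quasi-likelihood test called 38 of them changed, which means an adjusted p below 0.05. Of these, 30 rose and 8 fell, and 20 were not called. With the replicate number as a block in the fit, 35 were called higher and 9 lower, beside 6052 and 6261 of all genes tested. The share called, 65.5%, stands beside 71.7% of the 16591 genes tested. By direction, 51.7% of the 58 genes rose beside 35.2% of all genes, and 13.8% fell beside 36.5%. All 58 are protein-coding, and of the 13008 protein-coding genes tested 77.4% were called, 40.3% higher and 37.1% lower, with a median log2 fold change of 0.028. The changes were small: 1 gene (LSM8, lower) changed at least 2-fold, beside 29.3% of all genes tested (8.72% higher, 20.5% lower), and 15 changed at least 1.5-fold, beside 48.6%. Of the 15, 13 rose and 2 fell, beside 20.3% and 28.3% of all genes. The median log2 fold change was 0.26 over the 58 genes and -0.027 over all genes tested, with extremes of -1.23 (LSM8) and 0.96 (SF3B1). The groups did not overlap for 43 of the 58 genes, beside 75.1% of all genes tested. Together the 58 genes took 0.536%, 0.530% and 0.529% of all counts in the siControl libraries and 0.607%, 0.600% and 0.603% in the siSON libraries, shares that did not overlap. Abundant genes weigh most in this sum. PRPF8 had 25740, 23671 and 27817 counts in siControl and 42117, 35201 and 37053 in siSON. SF3B1 had 21478, 20320 and 23441 in siControl and 37489, 31227 and 29614 in siSON. With library size alone the median log2 fold change of the 58 genes was 0.062.

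The split between directions depended on how libraries were scaled. When library size alone was used in place of TMM, which lowered the log2 fold changes of all genes by a median of 0.20, 23 of the 58 genes were called higher and 18 lower, so that 56.1% of these calls were higher beside 37.7% of the calls over all genes (4441 higher and 7351 lower). After cyclic loess normalization 24 were called higher and 15 lower, 61.5% higher beside 51.7% over all genes (6041 higher and 5643 lower). Under TMM the same shares were 78.9% and 49.1%. Called the same way under TMM, relative log expression factors, library size alone and cyclic loess were 20 genes that rose and 7 that fell. The 7 were SNRNP200 and 6 of the 7 genes of the LSM2 to LSM8 ring, and the 20 included SF3B1, PRPF8, SNRPA1, SNRPB, SNRNP40, SNRNP48, PRPF3 and LSM1. No gene called under TMM changed sign under any alternative run.

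**Figure D1:**
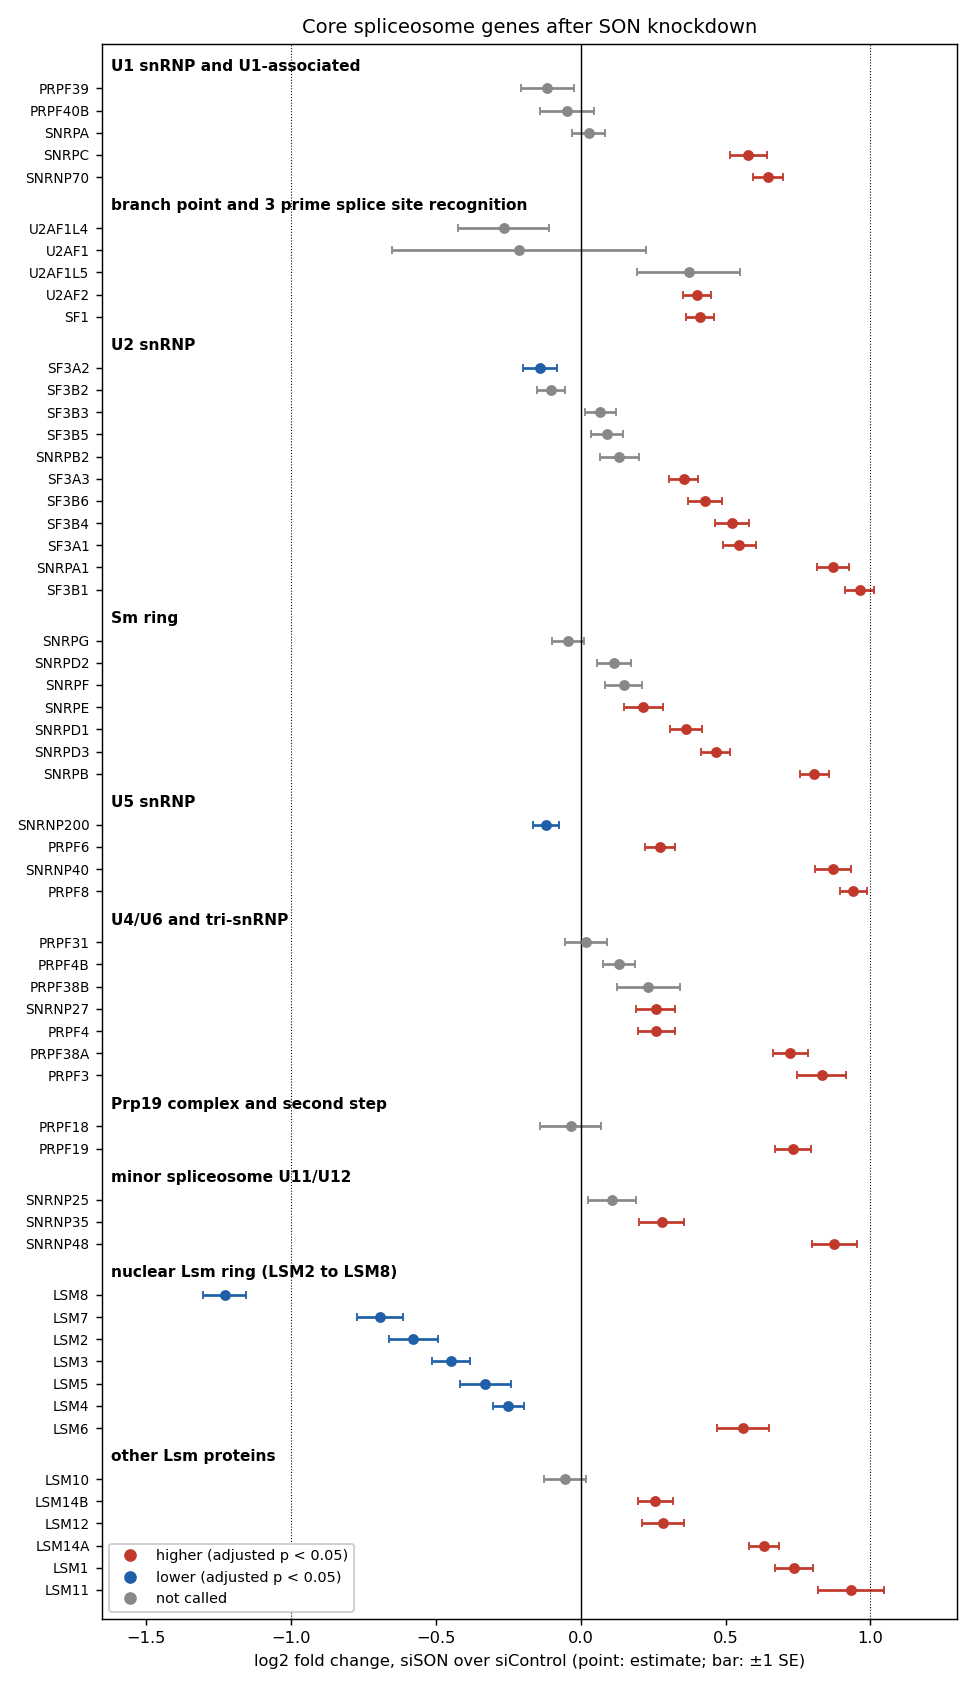
Log2 fold change of 57 of the 58 core spliceosome genes (horizontal axis, siSON over siControl, point with ±1 SE), grouped by role. Red points rose (30 genes), blue fell (8) and grey were not called; the blue points cluster in the LSM2 to LSM8 ring, and only LSM8 lies beyond the dotted line at -1.

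**Figure D2:**
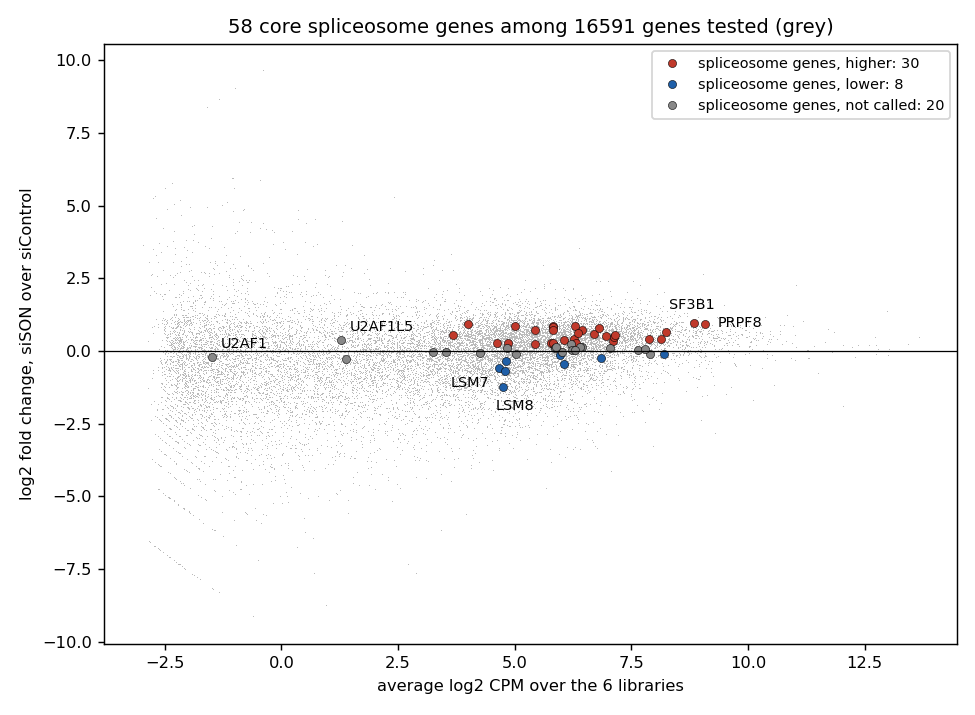
Log2 fold change (vertical axis) against average log2 CPM (horizontal axis) for all 16591 genes tested (grey) with the 58 core spliceosome genes marked by their call. The spliceosome genes lie in a narrow band around 0 while the grey points spread well beyond it in both directions; U2AF1 and U2AF1L5 lie far to the left of most of the others.

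A pair of the 58 genes carry the same coding sequence, which bears on what can be said of U2AF1, the small subunit of U2AF that reads the AG at the 3′ splice site. U2AF1 (8 exons on the minus strand of chromosome 21, 43092956 to 43107587) and U2AF1L5 (8 exons on the minus strand of chromosome 21, 6484623 to 6499261) lie on the same chromosome (coordinates throughout are those of GENCODE release 29, GRCh38). Of the 720 coding bases of their chosen transcripts, 0 differ. Their first 60 coding bases, shown because they are the same letters in both genes, read as follows.
U2AF1: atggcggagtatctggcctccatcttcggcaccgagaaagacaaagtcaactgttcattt
U2AF1L5: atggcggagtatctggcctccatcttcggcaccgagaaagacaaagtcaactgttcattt
Of the 50-base words of the U2AF1 transcript, 96.8% also occur in U2AF1L5, and 100% of those of U2AF1L5 occur in U2AF1. U2AF1 had 28, 22 and 21 reads counted in siControl and 28, 9 and 11 in siSON, and U2AF1L5 had 153, 150 and 131 against 181, 131 and 126. These are low counts beside those of U2AF2, its larger partner, which had 17354, 15264 and 17527 counts in siControl. How reads that match several places were treated is not given in the sources used here, and its part in the low counts was not tested. Neither copy was called changed, with log2 fold changes of -0.21 (edgeR adjusted p 0.678) and 0.37 (edgeR adjusted p 0.0796), so no direction is given for U2AF1. U2AF1L5 was called higher under cyclic loess normalization alone (0.73, adjusted p 0.00261).

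The mRNAs of the 7 Lsm proteins that form the ring on U6 RNA moved mainly one way. Proteins and rings were not measured, and LSM2 to LSM7 also belong to a cytoplasmic ring. LSM2 to LSM8 form the nuclear ring that binds the 3′ end of U6 and helps it pair with U4, and LSM1 replaces LSM8 in the otherwise identical cytoplasmic ring that promotes mRNA decapping. All 7 genes of the nuclear ring were called, beside 71.7% of all genes tested. LSM2, LSM3, LSM4, LSM5, LSM7 and LSM8 fell and LSM6 rose, with a median log2 fold change of -0.45. The same 6 of 7 were called lower, beside 36.5% of all genes tested, under every alternative run, the 3 other scalings and the omission of any library included.

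LSM8 (4 exons on the plus strand of chromosome 7, 118184032 to 118192824), the subunit that keeps the ring nuclear, had 38.1, 37.8 and 36.7 CPM in the siControl libraries and 14.9, 16.2 and 17.0 CPM in the siSON libraries. The lowest siControl library was well above the highest siSON library. The level fell from 37.6 ± 0.732 CPM to 16.04 ± 1.084 CPM (SD, n = 3 each), to 42.7% of control (edgeR adjusted p 7.41e-08, log2 fold change -1.23 with an SE of 0.074), the only change of at least 2-fold among the 58 genes under TMM. LSM7 (4 exons on the minus strand of chromosome 19, 2321517 to 2328620; overlapping SPPL2B and AC005258.1 on the other strand) had 36.8, 32.5 and 33.2 CPM in the siControl libraries and 22.5, 19.8 and 21.2 CPM in the siSON libraries, which did not overlap. It fell from 34.2 ± 2.27 CPM to 21.1 ± 1.36 CPM (SD, n = 3 each; edgeR adjusted p 1.18e-05, log2 fold change -0.69 with an SE of 0.079). For LSM2 (5 exons on the minus strand of chromosome 6, 31797396 to 31806984) the values were 30.4, 30.7 and 29.9 CPM in the siControl libraries and 19.8, 18.5 and 22.7 CPM in the siSON libraries. The LSM2 groups were well apart, although siSON replicate 3 was higher than the other siSON libraries, and the fall was from 30.3 ± 0.418 CPM to 20.3 ± 2.15 CPM (SD, n = 3 each; edgeR adjusted p 8.16e-05, log2 fold change -0.58 with an SE of 0.084).

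LSM3 (overlapping XPC on the other strand) had 76.4, 76.3 and 77.7 CPM in the siControl libraries and 51.4, 58.6 and 59.0 CPM in the siSON libraries, and LSM5 had 34.8, 28.4 and 30.5 CPM in the siControl libraries and 23.4, 25.9 and 25.4 CPM in the siSON libraries. Both fell without overlap between the groups. The log2 fold changes were -0.45 (edgeR adjusted p 8.04e-05) for LSM3 and -0.33 (edgeR adjusted p 0.00548) for LSM5. LSM4, which carries the long tail of the ring, fell from 126 ± 3.63 CPM to 106 ± 4.30 CPM (SD, n = 3 each; edgeR adjusted p 0.00152, log2 fold change -0.25 with an SE of 0.054). The fall of LSM4 was larger with library size alone (-0.45, adjusted p 3.09e-05) and under cyclic loess (-0.51, adjusted p 8.01e-06), as was that of LSM5 with library size alone (-0.52, adjusted p 0.000279). LSM6, the exception, had 10.9, 10.5 and 9.46 CPM in the siControl libraries and 15.4, 14.5 and 15.7 CPM in the siSON libraries and rose from 10.3 ± 0.760 CPM to 15.2 ± 0.652 CPM (SD, n = 3 each; edgeR adjusted p 0.000175, log2 fold change 0.56 with an SE of 0.090), and it was higher under each scaling run. Per kilobase of exon, the siControl level ran from 2.58 (LSM6) to 41.5 (LSM4) RPKM, CPM divided by the joined length of all annotated exons. LSM6 was the lowest of the ring in siControl by RPKM and by CPM. In siSON LSM8 was lowest by RPKM, at 2.58 beside 3.81 for LSM6, while by CPM LSM6 was lower, at 15.2 beside 16.04. The siSON order thus depends on the length used, 6210 bases for LSM8 and 3993 for LSM6, whose chosen transcripts have 1305 and 2259. LSM3 and LSM7 both had 20.1 RPKM in siControl, over 3815 and 1698 bases, but their chosen transcripts have 3815 and 529.

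LSM1 (4 exons on the minus strand of chromosome 8, 38163321 to 38176730; overlapping BAG4 and AC084024.3 on the other strand and RNU6-323P on its own) had 43.0, 41.1 and 43.3 CPM in the siControl libraries and 73.3, 65.1 and 73.6 CPM in the siSON libraries. The LSM1 level rose from 42.5 ± 1.18 CPM to 70.7 ± 4.80 CPM (SD, n = 3 each, edgeR adjusted p 1.57e-06, log2 fold change 0.74 with an SE of 0.066). The mRNAs of the subunits that distinguish the cytoplasmic from the nuclear ring thus changed in opposite directions. The ratio of LSM1 to LSM8 counts, in which library scaling cancels, was 1.13, 1.09 and 1.18 in the siControl libraries and 4.93, 4.02 and 4.32 in the siSON libraries. The groups were far apart, and the mean ratio went from 1.13 ± 0.0455 to 4.42 ± 0.463 (SD, n = 3 each), a 3.90-fold difference between geometric means. The exact permutation p was 0.1 (2-sided), the smallest that 3 libraries against 3 allow, and 0.1 after Benjamini-Hochberg adjustment over the 3 ratios computed. The 3 pairs were chosen after their values were seen, so the p-values are no test of them, and the adjustment does not cover that choice.

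**Figure D3:**
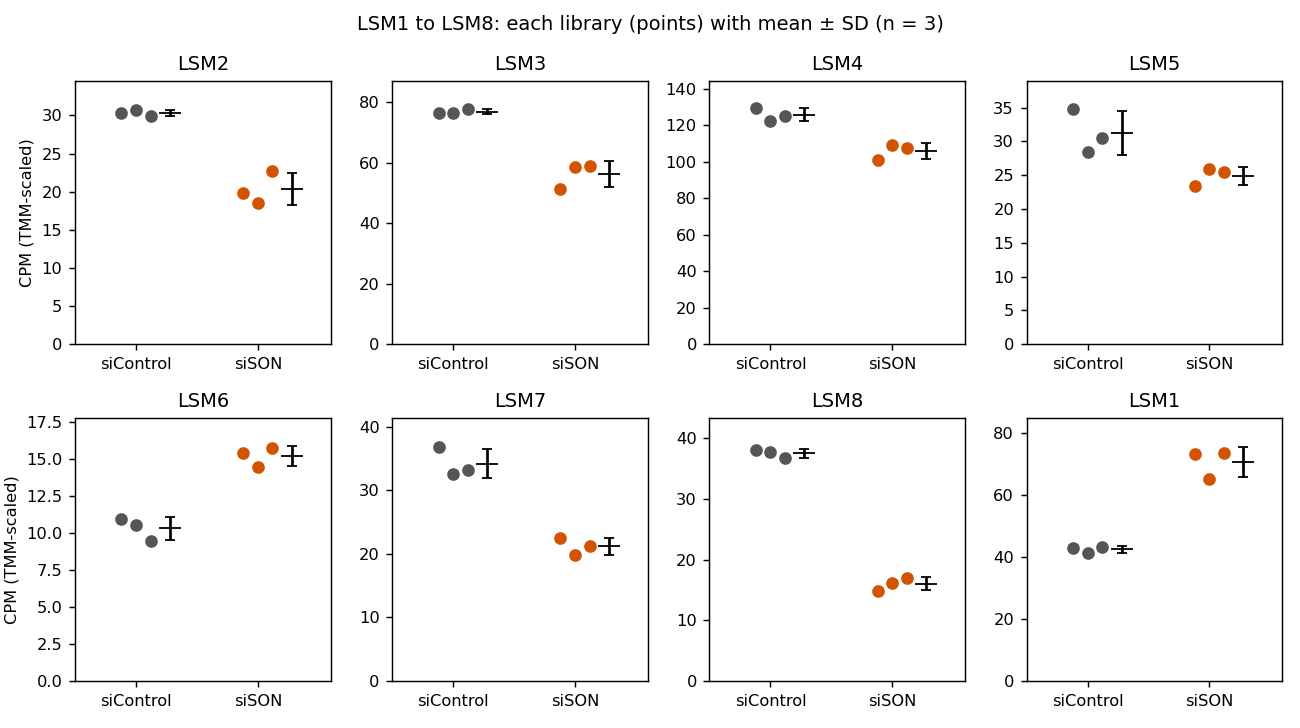
CPM of LSM2 to LSM8 and of LSM1 in each library (points; vertical axes start at 0), with the group mean ± SD (n = 3). The siSON points lie below the siControl points for LSM2, LSM3, LSM4, LSM5, LSM7 and LSM8 and above them for LSM6 and LSM1.

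The other Lsm proteins rose or were not called under TMM. LSM11 and LSM10 belong to the U7 snRNP, which processes histone mRNA ends, and LSM12, LSM14A and LSM14B act outside the spliceosome. Of these and LSM1, 5 of 6 rose (83.3%, beside 35.2% of all genes tested), while library size alone gave 3 higher and 1 lower. LSM11 (4 exons on the plus strand of chromosome 5, 157743695 to 157760709; overlapping AC026407.1 on the other strand) had 11.7, 9.83 and 11.6 CPM in the siControl libraries and 18.9, 20.0 and 24.6 CPM in the siSON libraries, with siSON replicate 3 highest and no overlap. It rose from 11.1 ± 1.06 CPM to 21.1 ± 3.01 CPM (SD, n = 3 each; edgeR adjusted p 2.07e-05, log2 fold change 0.93 with an SE of 0.11), and the log2 fold change was 1.05, adjusted p 1.05e-05 under cyclic loess, 1.02, adjusted p 2.53e-06 without siSON replicate 1 and 1.03, adjusted p 2.99e-07 without both libraries numbered 1. LSM14A, a P-body protein, had a log2 fold change of 0.63 (edgeR adjusted p 7.11e-07), LSM14B of 0.26 (edgeR adjusted p 0.00229) and LSM12 of 0.28 (edgeR adjusted p 0.00462). Scaling by library size alone ended the calls of LSM12 and LSM14B. LSM12 shares 22.1% of its 50-base words with a pseudogene, LSM12P1. LSM10, at -0.054 (edgeR adjusted p 0.523), was not called, but it was lower with library size alone (-0.25, adjusted p 0.00882).

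The U5 snRNP sits at the centre of the catalytic spliceosome, and its 4 genes in the set were all called, 3 higher and 1 lower. Of all genes tested, 71.7% were called, 35.2% higher and 36.5% lower. PRPF8 (42 exons on the minus strand of chromosome 17, 1650629 to 1684882; overlapping AC130343.2 on the other strand), the scaffold of the active site, had 369, 372 and 372 CPM in the siControl libraries and 726, 683 and 729 CPM in the siSON libraries. The siControl libraries lay close together and the siSON libraries were all far above them. PRPF8 rose from 371 ± 1.97 CPM to 712 ± 25.9 CPM (SD, n = 3 each; edgeR adjusted p 1.74e-08, log2 fold change 0.94 with an SE of 0.046). Under cyclic loess the rise of PRPF8 was smaller (0.55, adjusted p 6.73e-07). SNRNP40 (10 exons on the minus strand of chromosome 1, 31259568 to 31296782; overlapping AC114495.2 on its own strand), a WD-repeat protein of U5, had 37.99, 39.7 and 41.5 CPM in the siControl libraries and 75.6, 70.5 and 71.9 CPM in the siSON libraries, again with no overlap, and its log2 fold change was 0.87 (edgeR adjusted p 2.36e-07). PRPF6, which bridges U5 to U4/U6, had a log2 fold change of 0.27 (edgeR adjusted p 0.000621), a call that library size alone ended (0.076, adjusted p 0.208) as did cyclic loess (0.065, adjusted p 0.280).

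SNRNP200 (45 exons on the minus strand of chromosome 2, 96274336 to 96305515), the helicase that unwinds U4 from U6, went the other way. It had 314, 301 and 307 CPM in the siControl libraries and 288, 280.4 and 281 CPM in the siSON libraries, which did not overlap, and a log2 fold change of -0.12 (SE 0.045, edgeR adjusted p 0.0355). That small fall was not past 0.05 with DESeq2 (-0.11, adjusted p 0.101), without a filter (-0.11, adjusted p 0.105), or without siControl replicate 3 (-0.13, adjusted p 0.0588), siSON replicate 2 (-0.099, adjusted p 0.141) or siSON replicate 3 (-0.10, adjusted p 0.131). It was larger with library size alone (-0.31, adjusted p 6.55e-05) and under cyclic loess (-0.47, adjusted p 2.82e-06). The ratio of PRPF8 to SNRNP200 counts was 1.18, 1.24 and 1.21 in siControl and 2.52, 2.43 and 2.59 in siSON. The mean ratio went from 1.21 ± 0.0302 to 2.52 ± 0.0780 (SD, n = 3 each), with no overlap (2-sided exact permutation p = 0.1, the smallest possible; 0.1 adjusted over 3 ratios). The pair was chosen after its values were seen, so this p is no test of it. PRPF8 and SNRNP200 proteins both belong to U5, and their mRNAs changed unequally.

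The U2 snRNP recognises the branch point through the SF3A and SF3B complexes. Of its 11 genes, 6 rose (54.5%, beside 35.2% of all genes tested), 1 fell (9.09%, beside 36.5%) and 4 were not called. The median log2 fold change of the 11 was 0.36. Scaled by library size, 6 were higher and 3 lower, and cyclic loess gave 5 and 3. SF3B1 (25 exons on the minus strand of chromosome 2, 197389784 to 197435091; overlapping RF00394 on the other strand), the large subunit that clamps the branch point helix, had 308, 319.6 and 314 CPM in the siControl libraries and 646, 605 and 583 CPM in the siSON libraries. It rose from 314 ± 5.90 CPM to 611 ± 32.1 CPM (SD, n = 3 each; edgeR adjusted p 2.95e-08, log2 fold change 0.96 with an SE of 0.051), the largest rise among the 58 genes under TMM, and without siSON replicate 3 its log2 fold change was 1.01, adjusted p 9.84e-08. Under cyclic loess the rise was smaller (0.58, adjusted p 1.98e-06).

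SF3B2, which binds beside SF3B1, had 249.8, 237 and 255 CPM in the siControl libraries and 230.2, 229.7 and 231 CPM in the siSON libraries. The siSON libraries lay slightly below all siControl libraries. Its log2 fold change of -0.10 (edgeR adjusted p 0.0754) was not called, although it was lower with library size alone (-0.30, adjusted p 0.000173) and under cyclic loess (-0.43, adjusted p 7.86e-06). SF3B2 was also called lower with the replicate block (-0.10, edgeR adjusted p 0.0390). The ratio of SF3B1 to SF3B2 counts was 1.23, 1.35 and 1.23 in siControl and 2.81, 2.64 and 2.52 in siSON. The mean ratio was 1.27 ± 0.0662 against 2.65 ± 0.143 (SD, n = 3 each), without overlap (2-sided exact permutation p = 0.1, the smallest possible; 0.1 adjusted over 3 ratios). This pair too was chosen after its values were seen, so the p is no test of it. SF3B3 and SF3B5, the other subunits that were not called in SF3B, had log2 fold changes of 0.068 (edgeR adjusted p 0.260) and 0.092 (edgeR adjusted p 0.164). SF3B3 was lower with library size alone (-0.13, adjusted p 0.0488) and under cyclic loess (-0.26, adjusted p 0.000688). SF3B4 and SF3B6, which both contact RNA, rose by 0.52 (edgeR adjusted p 9.77e-06) and 0.43 (edgeR adjusted p 4.57e-05) on the log2 scale, and the rises were smaller under cyclic loess, at 0.26, adjusted p 0.00208 and 0.22, adjusted p 0.00501.

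In SF3A, SF3A1 rose by 0.55 (edgeR adjusted p 5.42e-06) and SF3A3 by 0.36 (edgeR adjusted p 6.04e-05) on the log2 scale, and SF3A2 fell by 0.14 on the log2 scale (edgeR adjusted p 0.0488). Under cyclic loess the SF3A1 rise was smaller (0.27, adjusted p 0.000914). The SF3A3 rise was not past 0.05 under cyclic loess (0.079, adjusted p 0.164), and the SF3A2 fall, close to the threshold, was lost in 7 alternatives, such as DESeq2 (-0.13, adjusted p 0.107) and relative log expression factors (-0.14, adjusted p 0.0539). SNRPA1, the U2 protein A′, rose from 55.8 ± 2.39 CPM to 102 ± 0.563 CPM (SD, n = 3 each; edgeR adjusted p 1.03e-07, log2 fold change 0.87 with an SE of 0.055). Of its 50-base words 41.5% also occur in other annotated transcripts, most of them in AL078621.1, so its counts are uncertain. SNRPB2, the U2 protein B″ that binds with SNRPA1, was at 0.13 (edgeR adjusted p 0.0989) and not called, but it was called higher with the replicate block (0.13, edgeR adjusted p 0.0324).

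**Figure D4:**
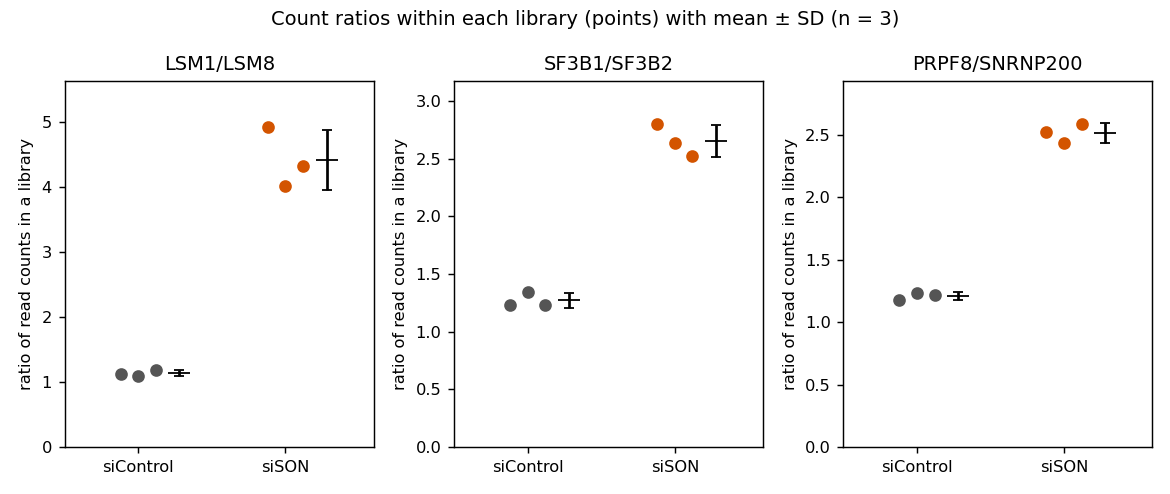
Ratio of read counts of LSM1 to LSM8, SF3B1 to SF3B2 and PRPF8 to SNRNP200 in each library (points; vertical axes start at 0), with the mean ± SD of 3 libraries. In each pair the 3 siSON libraries lie above the 3 siControl libraries with no overlap. The pairs were chosen after their values were seen.

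Recognition of the 5′ splice site was represented by the 3 proteins specific to U1 and by U1-associated factors. SNRNP70 (10 exons on the plus strand of chromosome 19, 49085419 to 49108605), which contacts U1 RNA and SR proteins, had 247, 231 and 225 CPM in the siControl libraries and 375, 361 and 365 CPM in the siSON libraries. It rose from 235 ± 11.3 CPM to 367 ± 7.16 CPM (SD, n = 3 each; edgeR adjusted p 5.57e-07, log2 fold change 0.65 with an SE of 0.051). Under cyclic loess the rise of SNRNP70 was smaller (0.30, adjusted p 0.000261). SNRPC, which stabilises U1 at the splice site, had 89.4, 77.9 and 84.6 CPM in the siControl libraries and 132, 119 and 125 CPM in the siSON libraries and rose by 0.58 (edgeR adjusted p 1.05e-05) on the log2 scale, less under cyclic loess (0.34, adjusted p 0.000844). SNRPC shares 9.58% of its 50-base words with 11 other annotated genes. SNRPA (6 exons on the plus strand of chromosome 19, 40750637 to 40765389; overlapping C19orf54 on the other strand), the U1 A protein, had 75.6, 72.7 and 72.8 CPM in the siControl libraries and 79.1, 71.6 and 74.6 CPM in the siSON libraries. The SNRPA groups overlapped, and its log2 fold change of 0.028 (edgeR adjusted p 0.685) was not called, while it was lower with library size alone (-0.17, adjusted p 0.0173) and under cyclic loess (-0.17, adjusted p 0.0207).

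PRPF39 and PRPF40B, counterparts of yeast U1 proteins, were not called, at -0.11 (edgeR adjusted p 0.289) and -0.046 (edgeR adjusted p 0.675). With library size alone both were lower, PRPF39 at -0.31, adjusted p 0.0123 and PRPF40B at -0.24, adjusted p 0.0350. SNRNP70 and SNRPC were called higher under each of the 4 scalings.

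SF1 and U2AF2 mark the branch point and the polypyrimidine tract before U2 binds. SF1 (14 exons on the minus strand of chromosome 11, 64764606 to 64778786) had 208, 206 and 194 CPM in the siControl libraries and 273, 266 and 269 CPM in the siSON libraries. U2AF2 (12 exons on the plus strand of chromosome 19, 55654146 to 55674715; overlapping AC008735.2 on the other strand and AC008735.1 on its own) had 248.7, 240.1 and 235 CPM in the siControl libraries and 309, 320.1 and 326 CPM in the siSON libraries. In both genes every siSON library was above every siControl library. SF1 rose from 202 ± 7.77 CPM to 269.5 ± 3.36 CPM (SD, n = 3 each; edgeR adjusted p 1.53e-05, log2 fold change 0.41 with an SE of 0.049), and U2AF2 rose from 241 ± 7.13 CPM to 318 ± 8.70 CPM (SD, n = 3 each; edgeR adjusted p 1.77e-05, log2 fold change 0.40 with an SE of 0.048). Both rises were lost under cyclic loess, at 0.083, adjusted p 0.143 for SF1 and 0.055, adjusted p 0.303 for U2AF2. U2AF1L4, a paralog of U2AF1 that overlaps PSENEN and shares 42.9% of its 50-base words with the transcript AD000671.2, had 2.79, 2.82 and 2.76 CPM in the siControl libraries and 2.62, 2.35 and 1.99 CPM in the siSON libraries. Its groups did not overlap, yet its log2 fold change of -0.26 (edgeR adjusted p 0.152) was not called. It was lower with library size alone (-0.46, adjusted p 0.0200), and it ran from -0.35 to -0.15 with 1 library left out.

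The 7 Sm proteins form the ring shared by U1, U2, U4 and U5. SNRPB, SNRPD1, SNRPD3 and SNRPE rose and SNRPD2, SNRPF and SNRPG were not called, with a median log2 fold change of 0.22. Of the 7 genes 57.1% were called, beside 71.7% of all genes tested. None fell under TMM, while 1 was called lower with library size alone and 2 under cyclic loess. With the replicate block SNRPF (0.15, edgeR adjusted p 0.0123) and SNRPD2 (0.12, edgeR adjusted p 0.0260) were also called higher. SNRPB, which encodes SmB and SmB′, had 82.8, 79.1 and 82.0 CPM in the siControl libraries and 139, 141 and 146 CPM in the siSON libraries. It rose from 81.3 ± 1.91 CPM to 142 ± 3.64 CPM (SD, n = 3 each; edgeR adjusted p 1.06e-07, log2 fold change 0.81 with an SE of 0.051), and 9.50% of its 50-base words are shared with AL049650.1, which overlaps it on the same strand. SNRPD3 and SNRPD1 rose by 0.47 (edgeR adjusted p 7.00e-06) and 0.36 (edgeR adjusted p 0.000108) on the log2 scale, and less under cyclic loess, at 0.19, adjusted p 0.00612 and 0.18, adjusted p 0.0118. SNRPE rose by 0.22 (edgeR adjusted p 0.0132), a call lost with library size alone (0.020, adjusted p 0.795), under cyclic loess (0.057, adjusted p 0.466), with a mean count of at least 50 (0.16, adjusted p 0.0502) and without siControl replicate 2 (0.15, adjusted p 0.105). SNRPE and SNRPG share 21.2% and 22.9% of their 50-base words with other annotated genes, SNRPE pseudogenes and SNRPG pseudogenes among them. SNRPG was at -0.043 (edgeR adjusted p 0.506) under TMM, and was lower with library size alone (-0.24, adjusted p 0.00222) and under cyclic loess (-0.22, adjusted p 0.00414). Per kilobase of exon the siControl levels of the ring ran from 11.8 (SNRPD1) to 79.0 (SNRPD2) RPKM.

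Among the U4/U6 and tri-snRNP genes, PRPF3, PRPF4, PRPF38A and SNRNP27 rose and PRPF31, PRPF38B and PRPF4B were not called. The share called was 57.1%, beside 71.7% of all genes tested. PRPF3 and PRPF4 bind each other on U4/U6. PRPF3 rose from 40.4 ± 2.56 CPM to 72.0 ± 8.09 CPM (SD, n = 3 each; edgeR adjusted p 4.46e-06, log2 fold change 0.83 with an SE of 0.085), beside a smaller rise of 0.26 (edgeR adjusted p 0.00341) for PRPF4. PRPF38A, needed for activation of the tri-snRNP, rose from 32.4 ± 0.717 CPM to 53.6 ± 1.55 CPM (SD, n = 3 each; edgeR adjusted p 8.64e-07, log2 fold change 0.72 with an SE of 0.060). SNRNP27 rose by 0.26 (edgeR adjusted p 0.00487) on the log2 scale. The rises of PRPF4 and SNRNP27 were lost with library size alone (0.065, adjusted p 0.380 and 0.063, adjusted p 0.439) and under cyclic loess (0.10, adjusted p 0.157 and 0.10, adjusted p 0.168).

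PRPF31 (14 exons on the plus strand of chromosome 19, 54115410 to 54131719; overlapping TFPT and AC245052.4 on the other strand), which joins U4/U6 to U5, had 76.5, 77.1 and 78.5 CPM in the siControl libraries and 87.8, 75.4 and 72.0 CPM in the siSON libraries. siSON replicate 1 was the highest and siSON replicate 3 the lowest of all 6, so the groups overlapped, and the log2 fold change was 0.019 (edgeR adjusted p 0.824). It was lower with library size alone (-0.18, adjusted p 0.0457) and under cyclic loess (-0.19, adjusted p 0.0423). PRPF38B also varied among the siSON libraries, at 91.3, 81.2 and 66.1 CPM, beside 74.4, 64.8 and 63.8 CPM in siControl. Its log2 fold change of 0.23 (edgeR adjusted p 0.0752) passed 0.05 with DESeq2 (0.24, adjusted p 0.0439), without a filter (0.24, adjusted p 0.00167), and without siControl replicate 1 (0.28, adjusted p 0.0472) or siSON replicate 3 (0.36, adjusted p 0.00299). PRPF38B also passed with the replicate block (0.23, edgeR adjusted p 0.00482). PRPF4B, a kinase of the tri-snRNP, was at 0.13 (edgeR adjusted p 0.0542), and passed 0.05 without siSON replicate 3 (0.18, adjusted p 0.0289). With the replicate block it passed as well (0.13, edgeR adjusted p 0.0285).

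PRPF19 (16 exons on the minus strand of chromosome 11, 60890730 to 60906588), the ubiquitin ligase that gives the Prp19 complex its name, had 70.4, 61.8 and 64.2 CPM in the siControl libraries and 112, 106 and 108 CPM in the siSON libraries. It rose from 65.5 ± 4.46 CPM to 109 ± 3.22 CPM (SD, n = 3 each; edgeR adjusted p 1.06e-06, log2 fold change 0.73 with an SE of 0.062), with every siSON library above every siControl library. PRPF18, a second-step factor, was at -0.034 (edgeR adjusted p 0.785) and not called; 42.5% of its 50-base words also occur in AL157392.5, which overlaps it on the same strand.

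The minor spliceosome removes a small class of introns with U11 and U12 in place of U1 and U2. Of its 3 genes here, SNRNP48 and SNRNP35 rose and SNRNP25 was not called, so that 66.7% were called beside 71.7% of all genes tested. SNRNP48 (9 exons on the plus strand of chromosome 6, 7590199 to 7611967), which recognises the 5′ splice site of these introns, had 23.7, 21.8 and 22.3 CPM in the siControl libraries and 44.5, 38.1 and 41.7 CPM in the siSON libraries. The siSON libraries were all well above the siControl libraries, and the rise was from 22.6 ± 0.984 CPM to 41.4 ± 3.18 CPM (SD, n = 3 each; edgeR adjusted p 1.31e-06, log2 fold change 0.88 with an SE of 0.077). SNRNP35, the U11 counterpart of SNRNP70, had a log2 fold change of 0.28 (edgeR adjusted p 0.00724), lost with library size alone (0.083, adjusted p 0.359), and SNRNP25, which overlaps POLR3K, was at 0.11 (edgeR adjusted p 0.255).

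**Figure D5:**
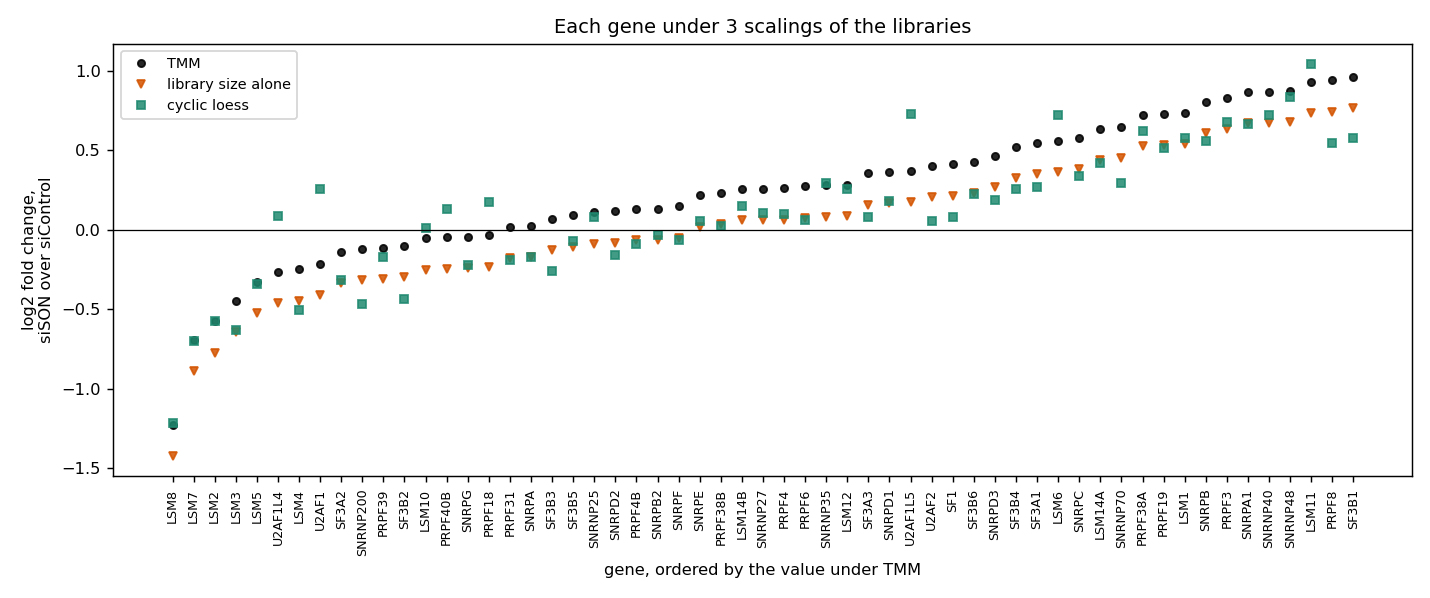
Log2 fold change (vertical axis, siSON over siControl) of 57 of the 58 genes (horizontal axis, ordered by the value under TMM) with TMM, library size alone and cyclic loess. Library size alone moves all genes down by a similar amount, cyclic loess lowers the abundant PRPF8 and SF3B1 and raises the scarce U2AF1L5 and U2AF1, and LSM8, LSM7, LSM2, LSM3, LSM5 and LSM4 stay below 0 under all 3.

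Spliceosome genes outside the naming rule also mostly rose. Of 78 such genes from a list (1 more, CENATAC, was not analysed here), all of which were tested, 65 were called (83.3%, beside 71.7% of all genes tested), 53 higher (67.9%, beside 35.2%) and 12 lower (15.4%, beside 36.5%), with a median log2 fold change of 0.44. Among protein-coding genes tested, 77.4% were called, 40.3% higher and 37.1% lower. Scaled by library size, the split was 44 higher and 18 lower, and cyclic loess gave 47 and 16. The list was chosen with earlier results of these data known, so it is no independent test of the direction of the naming-rule genes. In the Prp19 complex and its partners, 13 rose and 1 fell of 16, among U2-associated proteins 7 rose and 2 fell of 9, and among second-step and exon junction proteins 8 rose and 0 fell of 10. Among tri-snRNP partners 7 rose and 3 fell of 10, among helicases 5 rose and 2 fell of 9, among minor spliceosome proteins 6 rose and 1 fell of 8, and among the factors that assemble Sm rings 7 rose and 3 fell of 16. SMN1 and SMN2, near-identical copies on that list, are uncertain.

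The 5 that rose with the smallest adjusted p were DHX15, the helicase that takes spent spliceosomes apart, STRAP, a partner of the SMN complex, DHX8, the helicase that releases mRNA, CASC3 of the exon junction complex and CWC22, which recruits that complex. DHX15 rose from 146 ± 2.64 CPM to 324 ± 4.09 CPM (SD, n = 3 each; edgeR adjusted p 4.89e-09, log2 fold change 1.15 with an SE of 0.046), and STRAP rose from 231 ± 6.86 CPM to 516 ± 22.1 CPM (SD, n = 3 each; edgeR adjusted p 8.63e-09, log2 fold change 1.161 with an SE of 0.051). DHX8 and CWC22 also changed at least 2-fold, at 1.13 (edgeR adjusted p 3.77e-08) and 1.27 (edgeR adjusted p 7.85e-08) on the log2 scale, and CASC3 was at 0.90 (edgeR adjusted p 3.84e-08). The 5 that fell with the smallest adjusted p were DDX23, CHERP, DDX39A, WDR77 and GEMIN6. DDX23, the helicase that displaces U1, fell from 154 ± 6.21 CPM to 93.2 ± 3.44 CPM (SD, n = 3 each; edgeR adjusted p 4.19e-07, log2 fold change -0.73 with an SE of 0.055). The log2 fold changes of CHERP, a U2-associated protein, and DDX39A were -0.64 (edgeR adjusted p 4.43e-06) and -0.83 (edgeR adjusted p 5.74e-06). WDR77 and GEMIN6, both of Sm ring assembly, were at -0.59 (edgeR adjusted p 8.04e-05) and -0.48 (edgeR adjusted p 0.000819).

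The response was compared with gene structure as a description. Across the 58 genes, which share the same libraries, Pearson's r of the log2 fold change was 0.18 (Spearman's rho 0.26) with the log of total intron length, 0.15 (Spearman's rho 0.18) with the number of introns and -0.066 (Spearman's rho -0.11) with transcript GC content. It was 0.30 (Spearman's rho 0.24) with the log of transcript length and 0.18 (Spearman's rho 0.15) with the log of the siControl level. Without U2AF1 and U2AF1L5 the last value was 0.165 (Spearman's rho 0.13). Per kilobase of exon, siControl levels ran from 0.0308 RPKM for U2AF1 to 81.1 for SF3B5 and 79.0 for SNRPD2. The U2AF1 value may not be its expression level, because 96.8% of its 50-base words also occur in U2AF1L5. SF3B5, the single gene of the set with 1 exon and so no intron to remove, was not called. PRPF8 and SNRNP200, with 42 and 45 exons, had log2 fold changes of 0.94 and -0.12, and the small fall of SNRNP200 was not past 0.05 in several alternatives, as given above.

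Promoter sequences from RefSeq (GRCh38.p14) were matched by symbol for 47 of the 58 genes, LSM6 not among them, and the 250 bases before each start were searched on both strands for 5 short motifs. CCGGAAG, a core bound by ETS factors, was found in 19 of 47 (40.4%), beside 8.81% of all 27305 promoters. GGGCGG (SP1) was found in 29 of 47 (61.7%), beside 42.3% of all promoters, and CCAAT (NFY) in 21 of 47 (44.7%), beside 33.0% of all promoters. CATGCGCA (part of the NRF1 motif) was found in 1 of 47 (2.13%), beside 1.87% of all promoters, and TATAAA, the letters of a core promoter box, in 1 of 47 (2.13%), beside 11.1% of all promoters. The 27305 promoters were not limited to protein-coding or expressed genes, whereas the 47 genes are protein-coding and passed the filter on low counts. These shares therefore cannot tell a trait of spliceosome genes from one of expressed protein-coding genes. Among the 19 genes with the ETS letters 11 rose and 3 fell, with a median log2 fold change of 0.26, and among the 28 without them 13 rose and 5 fell, with a median of 0.19. The following are shown as the 3 largest falls and the 3 largest rises that have at least 100 bases clear of every annotated exon upstream of both the RefSeq and the GENCODE start, given 5′ to 3′ on the gene's strand with motif matches in capitals.
LSM8 (chr7:118183914-118184031, plus strand): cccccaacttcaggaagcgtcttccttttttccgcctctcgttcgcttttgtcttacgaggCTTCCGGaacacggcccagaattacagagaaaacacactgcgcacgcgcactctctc
LSM2 (chr6:31806985-31807216, minus strand): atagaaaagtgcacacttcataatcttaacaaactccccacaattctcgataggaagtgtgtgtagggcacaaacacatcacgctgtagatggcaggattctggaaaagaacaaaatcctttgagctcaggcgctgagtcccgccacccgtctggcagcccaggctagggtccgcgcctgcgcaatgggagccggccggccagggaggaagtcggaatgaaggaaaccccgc
SNRNP200 (chr2:96305547-96305796, minus strand): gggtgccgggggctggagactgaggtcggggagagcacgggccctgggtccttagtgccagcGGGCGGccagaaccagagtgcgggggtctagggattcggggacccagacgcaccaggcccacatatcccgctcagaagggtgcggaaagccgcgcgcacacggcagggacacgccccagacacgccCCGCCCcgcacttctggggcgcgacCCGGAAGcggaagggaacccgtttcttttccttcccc
SF3B1 (chr2:197435092-197435278, minus strand): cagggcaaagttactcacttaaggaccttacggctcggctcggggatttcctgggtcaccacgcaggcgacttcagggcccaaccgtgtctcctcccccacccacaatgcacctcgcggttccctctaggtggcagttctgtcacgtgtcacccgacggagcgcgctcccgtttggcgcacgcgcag
LSM11 (chr5:157743462-157743694, plus strand): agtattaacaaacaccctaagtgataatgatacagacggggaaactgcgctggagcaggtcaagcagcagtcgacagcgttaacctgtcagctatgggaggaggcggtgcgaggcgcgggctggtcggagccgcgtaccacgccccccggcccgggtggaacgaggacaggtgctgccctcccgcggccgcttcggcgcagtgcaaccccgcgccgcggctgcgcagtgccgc
SNRNP48 (chr6:7589948-7590197, plus strand): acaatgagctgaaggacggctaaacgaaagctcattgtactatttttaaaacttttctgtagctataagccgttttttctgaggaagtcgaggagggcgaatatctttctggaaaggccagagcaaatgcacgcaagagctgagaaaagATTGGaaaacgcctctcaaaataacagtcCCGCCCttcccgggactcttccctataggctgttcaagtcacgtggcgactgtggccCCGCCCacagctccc
The first 3 genes fell and the last 3 rose. LSM8 and SNRNP200 hold 1 ETS match each, and SNRNP200 and SNRNP48 hold 2 SP1 matches each, SNRNP48 with 1 NFY match besides. No motif is in the stretch shown for LSM2, SF3B1 or LSM11, which says only that these letters are not there.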

How the data were processed

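mRNA-seq counts per gene were deposited for 3 siControl and 3 siSON libraries. Per the submitters' processing notes, cutadapt 1.16, STAR 2.5.2a, featureCounts 1.6.2, DESeq2 1.28.1 and build hg38 were used, with no role given for each; the deposited values are whole-number counts, and strand and multi-mapping settings are not given in the sources used here. All 58735 gene IDs matched GENCODE release 29.

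Counts were tested with edgeR 4.0.16 (R 4.3.3; filterByExpr with a minimum count of 10, TMM, robust quasi-likelihood F-test, Benjamini-Hochberg adjustment over 16591 genes, threshold 0.05), and the scripts were tested on simulated data. The standard error is the fold change divided by the root of F. 3 counts, the limit that a count of 0 allows, were 0.0430 to 0.0550 CPM, for counting error only. Levels per kilobase used the union of GENCODE exons, which can be much longer than a single transcript, so the order of genes by these levels can depend on it. Alternatives were DESeq2 1.42.0, limma 3.58.1 (voom), other scalings and filters, a replicate block and left-out libraries.

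The genes, roles and lists were chosen with earlier results of these data known. 1 of the 58 genes is counted in the totals and not reported here on its own. Values in every library are given for genes changed at least 2-fold, the 5 largest rises and falls, and SNRNP70, SNRPA, SNRPC, SF1, U2AF1, U2AF2, SF3B1, PRPF8, SNRNP200, PRPF19 and PRPF31; of the other spliceosome genes, the 5 with the smallest adjusted p in each direction are named. LSM1, LSM6, SF3B2, SNRPB, PRPF38B and U2AF1L4 were added to those given by library after their values were seen.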

Additional observations from a re-analysis of the deposited data

How the results depend on the processing

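Of the 57 core spliceosome genes given singly, 26 kept their direction and their side of the threshold in every alternative run, 31 did not in at least 1, and 14 changed sign in at least 1, none of them a gene called changed under TMM. Library size alone gave 18 genes lower and cyclic loess 15, in place of 8, with median log2 fold changes of 0.062 and 0.096, in place of 0.26; a mean count of at least 50 gave a median of 0.20. Leaving out 1 library at a time gave medians of 0.23 to 0.27, 37 to 40 genes called, 6 to 8 lower and 1 to 2 changed at least 2-fold. The added gene was LSM11 (1.02) without siSON replicate 1 and SF3B1 (1.01) without siSON replicate 3. Cyclic loess and, chosen after seeing the data, leaving out both libraries numbered 1 each gave 2. The cause of these shifts was not tested.

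Log2 fold changes of opposite sign to TMM were, with library size alone, PRPF4B -0.065, SF3B5 -0.11, SNRPF -0.048, SNRNP25 -0.087, SF3B3 -0.13, SNRPB2 -0.063, SNRPA -0.17, SNRPD2 -0.080, PRPF31 -0.18. Under cyclic loess they were LSM10 0.012, PRPF4B -0.091, SF3B5 -0.070, PRPF18 0.18, PRPF40B 0.13, SNRPF -0.067, SF3B3 -0.26, SNRPB2 -0.032, U2AF1L4 0.090, SNRPA -0.17, SNRPD2 -0.16, PRPF31 -0.19, U2AF1 0.26. With a mean count of at least 50 they were SNRPA -0.029, PRPF31 -0.037, and without both libraries numbered 1 SNRPA -0.017, PRPF31 -0.10. With 1 library left out, the ranges that crossed 0 were PRPF18 -0.11 to 0.061, PRPF40B -0.094 to 0.012, SNRPA -0.0013 to 0.073, PRPF31 -0.056 to 0.089 and U2AF1 -0.79 to 0.056.

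Same-numbered libraries of the 2 groups had deviation correlations of 0.194, 0.0461 and 0.118. These were not all above 0.1, so the main fit did not take the numbers as pairs. However, 6 of 6 libraries correlated best with their own number, so same-numbered libraries may be paired. With the replicate block, 44 of the genes were called, 35 higher and 9 lower, 38 of them shared with the fit without it. The 6 added were PRPF38B (0.23, edgeR adjusted p 0.00482), PRPF4B (0.13, edgeR adjusted p 0.0285), SF3B2 (-0.10, edgeR adjusted p 0.0390), SNRPF (0.15, edgeR adjusted p 0.0123), SNRPB2 (0.13, edgeR adjusted p 0.0324), SNRPD2 (0.12, edgeR adjusted p 0.0260). Low counts limit U2AF1 and U2AF1L5.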

Other observations

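SNRPN, a tissue-restricted Sm protein outside the set of 58, had 4.76, 4.55 and 5.51 CPM in the siControl libraries and 3.45, 3.55 and 3.64 CPM in the siSON libraries. It fell from 4.94 ± 0.509 CPM to 3.54 ± 0.0967 CPM (SD, n = 3 each; edgeR adjusted p 0.00571, log2 fold change -0.48 with an SE of 0.13), with no overlap, while SNRPB, its close relative, rose. The difference between the 2 was not tested. The paralogous helicases DDX39A and DDX39B also had fold changes of opposite sign. DDX39A fell from 71.6 ± 8.48 CPM to 40.2 ± 2.61 CPM (SD, n = 3 each; edgeR adjusted p 5.74e-06, log2 fold change -0.83 with an SE of 0.087). DDX39B rose from 73.7 ± 9.79 CPM to 93.5 ± 10.6 CPM (SD, n = 3 each; edgeR adjusted p 0.0118, log2 fold change 0.34 with an SE of 0.10), although its libraries overlapped between the groups. That difference was not tested either.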
